A study of Arabidopsis thaliana with 11 samples.

Results

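The LCR genes of Arabidopsis thaliana encode small secreted cysteine-rich proteins, and 4 of them, LCR66, LCR68, LCR69 and LCR72, gave a usable signal on ATH1 arrays of flowers, stems and leaves. The members are the probe sets paired with a single gene whose symbol is LCR followed by a number and with a deposited signal of at least 100 on at least 3 of the 11 arrays. Of 8 LCR probe sets, 4 met this rule, each the only probe set of its gene, out of 13356 genes with a probe set of their own on the array. The cytochrome P450 gene named LCR alone was not included.

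All plants were wild type Columbia-0. Flowers (4 arrays) were open flowers together with closed buds, taken on day 29 after germination. Stems (4 arrays) were the growing top 2 inches without siliques and pedicels, also taken on day 29. Leaves (3 arrays) were still expanding and were taken on day 15. Each pot held 4 plants, kept near 25 °C in the day and 20 °C at night with a 16 h photoperiod (not given for flower replicate 4), either in a greenhouse (5 arrays) or in a growth chamber (5 arrays); stem replicate 4 has a title code for the greenhouse and a text naming a growth chamber. Flower and stem RNA went through Trizol and then a silica column and leaf RNA through Trizol only, so tissue, age and preparation cannot be told apart where leaf is compared. Replicates of a tissue grown at different sites were different plants, but nothing in the labels shows that replicates from the same site were. The p-values therefore measure only the spread between these samples. That spread includes the difference between sites, and the rest of it may be technical.

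Plant defensins are small secreted proteins that fold around a core held by disulfide bonds, and many of them inhibit the growth of fungi. The LCR family was named for low molecular weight and cysteine content and is related to the pollen coat proteins of Brassica, where relatives of this kind act between pollen and pistil. In the gene table each of the 4 members also has a plant defensin name of class 2: LCR69 (AT2G02100) is PDF2.2, LCR68 (AT2G02130) is PDF2.3, LCR66 (AT1G61070) is PDF2.4 and LCR72 (AT2G02140) is PDF2.6. The genes of LCR69, LCR68 and LCR72 lie close together on chromosome 2, with PDF2.1 and AT2G02103 as the only other protein-coding genes between LCR69 and LCR72, and LCR71, which the gene table gives as a transcribed pseudogene, between LCR68 and LCR72. LCR66 lies on chromosome 1, and none of the 3 protein-coding genes on either side of it carries an LCR or PDF name.

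Median deposited signal per array was 243.7 to 251.2 in flower, 192.1 to 200.65 in stem and 194.9 to 200.9 in leaf. Arrays of the same tissue correlated at 0.904 or more (Pearson's r across tested probe sets, which are no replicates), and arrays of different tissues at 0.824 or less. Of the listed tissue markers, 6 of 10 for flower, 3 of 8 for stem and 5 of 6 for leaf had a probe set of their own. AP1, AP3, PI and AG of the flower list had none, which left ATA27, A9, AMS, EMS1, PLIM2a and ANX2. All 6 for flower and all 3 for stem were higher on every array of their tissue than on any other array. So were 3 of 5 for leaf (RCA, PRK and LHCB4.1), while SBPASE and HPR overlapped with stem. Summed over the 6 flower markers, which include the anther gene ATA27 and the pollen gene PLIM2a, the normalised signal was 8729.6 to 9974 in flower, 89.7 to 240.0 in stem and 197 to 278 in leaf. The 3'/5' signal ratios of control transcripts peaked in stem replicate 3, at 12.2 for actin and 13.0 for GAPDH, against 1.83 to 8.23 and 1.94 to 5.45 on the other arrays. The ubiquitin ratio was 1.97 to 2.21 in flower and 1.24 to 1.62 in leaf, without overlap. Actin was 3.22 to 8.23 in flower and 1.83 to 3.29 in leaf, and GAPDH 2.15 to 5.45 and 2.25 to 2.61, both with overlap. The part of RNA quality in the flower versus leaf differences was not tested.

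Values below are signal intensities after quantile normalisation, in arbitrary units, and differences are on the log2(signal + 32) scale. Levels are compared between tissues for 1 gene and not between genes, because probe sets differ in brightness. A difference was called when limma's Benjamini-Hochberg adjusted p over 17526 tested probe sets was under 0.05 and the fold was at least 2 (1 log2 unit).

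LCR69 had its highest signal in flower, an intermediate one in leaf and its lowest in stem. It read 12630.2, 16862, 13251 and 12608 in flowers, against 959.5, 998, 2893 and 2463 in stems and 6952, 3849 and 3542 in leaves. The 3 tissues did not overlap, with every flower above every leaf and every leaf above every stem. LCR69 rose 3.00-fold in flower over leaf (log2 1.58 ± 0.36 SE, adjusted p = 0.0039 by limma) and 8.33-fold in flower over stem (3.06 ± 0.33, adjusted p = 1.0e-05). It fell in stem relative to leaf, with a log2 fold change of -1.47 ± 0.36 (SE, adjusted p = 0.0058). Each sample held many cell types, so fewer cells of a type and less RNA per cell cannot be told apart here or below.

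Within tissues LCR69 varied most among the stems, where the highest array was 3.02 times the lowest, against 1.34 times among flowers and 1.96 times among leaves. Stem replicates 3 and 4 stood above stem replicates 1 and 2, and the actin 3'/5' ratio of stem replicates 1 to 4 was 2.67, 3.89, 12.2 and 4.20; its part in the LCR69 level was not tested. Without stem replicate 3, LCR69 was at 3.33 in flower versus stem and at -1.75 in stem versus leaf on the log2 scale. The stem versus leaf difference was unequal at the 2 sites: greenhouse arrays alone (1 stem, 2 leaves) gave a log2 difference of -0.35, and growth chamber arrays alone (2 stems, 1 leaf) gave -2.79. Flower versus leaf was 1.80 in the greenhouse and 1.07 in the growth chamber, and flower versus stem 2.15 and 3.86. With log2 values centred on each array's median, flower versus leaf for LCR69 was 0.94 and was not called (adjusted p = 0.069). With arrays scaled to GapC, a glycolytic gene, stem versus leaf was -0.93 and was not called (adjusted p = 0.066).

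**Figure D1:**
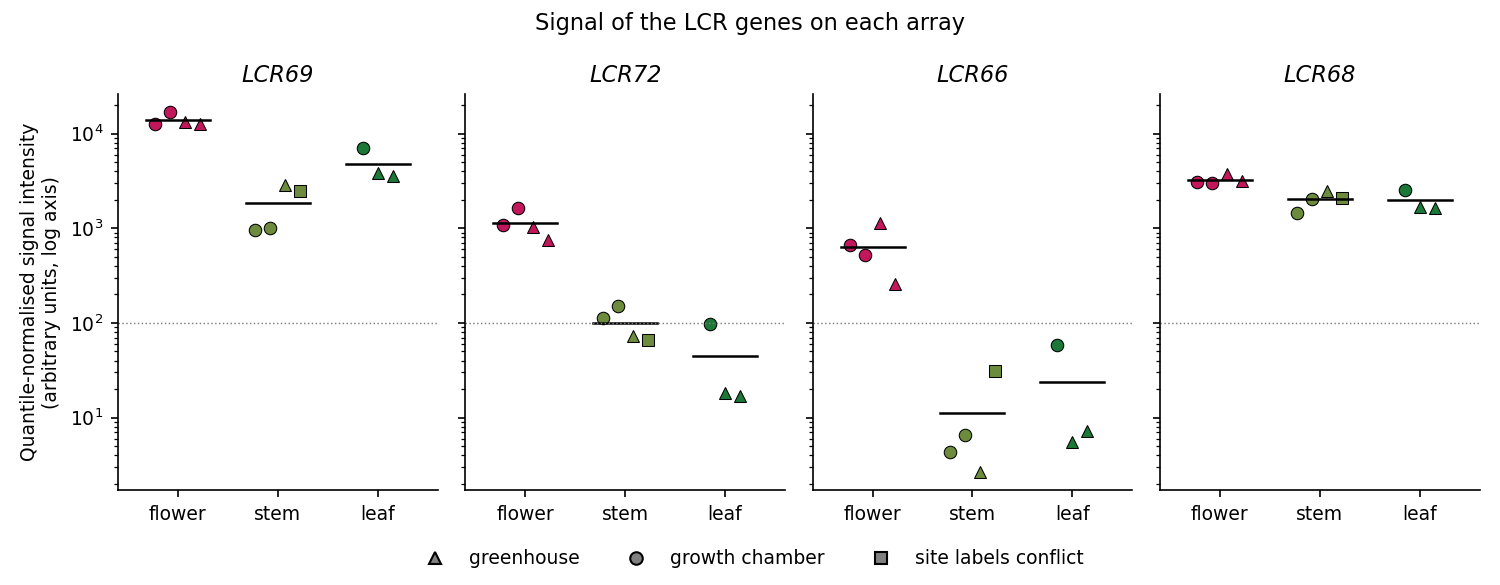
Quantile-normalised signal (arbitrary units, log axis) of the 4 LCR genes on each of the 11 arrays, by tissue; symbols give the growth site, bars the tissue mean and the dotted line a signal of 100. All flower arrays of each gene lie above its stem and leaf arrays, LCR66 and LCR72 are near or below 100 in stem and leaf, and LCR69 is the only gene with 3 separate tissues; heights are not comparable between genes.

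LCR72 was a gene of flower signal, low in stem and lower still on most leaf arrays. Its signal was 1090.1, 1648, 1031 and 752 in flowers, against 113, 149, 73.4 and 66.8 in stems and 98.4, 18.0 and 17.1 in leaves. Every flower array stood above every other array, while leaf replicate 1 lay within the range of the stems. LCR72 rose 16.4-fold in flower over leaf (log2 4.03 ± 0.36 SE, adjusted p = 1.9e-06 by limma) and 8.70-fold in flower over stem (3.12 ± 0.33, adjusted p = 9.0e-06). Stem versus leaf gave a log2 difference of 0.91, with a 95% interval of 0.13 to 1.69, and was not called (adjusted p = 0.067). That difference was called without leaf replicate 1, at 1.38 (adjusted p = 0.0053), with a pseudocount of 1, at 1.57 (0.038), with GapC scaling, at 1.14 (0.014), and with a replicate block, at 1.06 (0.029).

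LCR66 read above 100 on every flower array and on no stem or leaf array. It read 658, 518, 1123 and 255 in flowers, against 4.33, 6.52, 2.65 and 31.4 in stems and 58.1, 5.54 and 7.27 in leaves. Its flower arrays spanned 4.40-fold, more than those of the other 3 genes, and still lay above all stem and leaf arrays. LCR66 rose 11.7-fold in flower over leaf (log2 3.55 ± 0.46 SE, adjusted p = 4.7e-05 by limma) and 14.2-fold in flower over stem (3.83 ± 0.42, adjusted p = 1.2e-05). Stem and leaf overlapped, with a log2 difference of -0.28 and a 95% interval of -1.27 to 0.70 (adjusted p = 0.67).

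The folds of LCR66 and LCR72, both low in stem and leaf, changed in size with the pseudocount, and on the log2(signal + 32) scale they understate the ratio of the signals. The ratio of mean signals without a pseudocount was 27.0 for flower over leaf and 56.9 for flower over stem in LCR66. In LCR72 it was 25.4 and 11.2, so the sizes are not to be read from these 2 genes. With a pseudocount of 1, LCR66 was at 5.25 in flower versus leaf and 6.08 in flower versus stem, and with 100 at 2.47 and 2.60. LCR72 was at 5.07 and 3.50 with a pseudocount of 1, and at 3.09 and 2.59 with 100. All 8 of these differences were called. LCR66 met the signal minimum on its 4 flower arrays alone, and LCR72 on 4 flower arrays and 2 stem arrays. A high flower signal was thus part of how both were chosen, so their flower calls are descriptive only.

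LCR68 read well above 100 on all 11 arrays, and its tissue means differed by less than 2-fold. It read 3075, 3011, 3704 and 3141 in flowers, against 1462, 2058, 2466 and 2079 in stems and 2559.9, 1679 and 1649 in leaves. Flowers lay above both other tissues without overlap, and stems and leaves overlapped. The flower difference was under the 2-fold minimum, at 1.67-fold over leaf (log2 0.74, 95% interval 0.31 to 1.16, adjusted p = 0.011 by limma) and 1.62-fold over stem (0.69, interval 0.30 to 1.08, adjusted p = 0.0091). Stem versus leaf was 0.04, with an interval of -0.38 to 0.47 (adjusted p = 0.89), and it was 0.56 among greenhouse arrays and -0.55 among growth chamber arrays. The flower difference also depended on the scale: median centring gave 0.31 over leaf (adjusted p = 0.27) and 0.20 over stem (0.43), while GapC scaling gave 1.19 over leaf (0.0024), which was called, and 0.52 over stem (0.14).

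**Figure D2:**
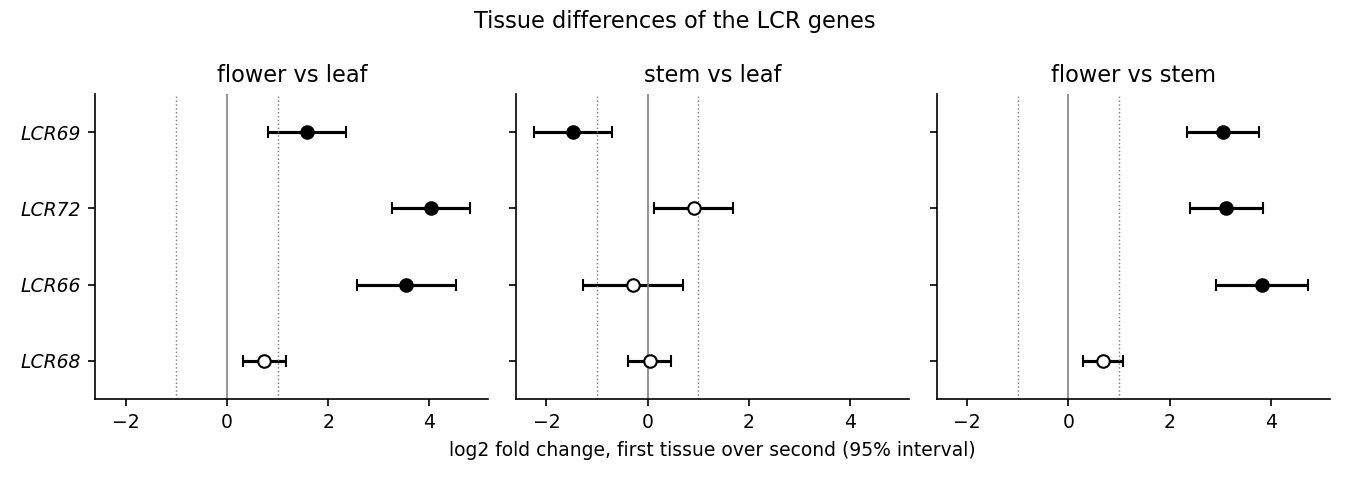
log2 fold change (x axis, first tissue over second, with 95% interval from limma) of the 4 LCR genes in the 3 tissue contrasts; filled points were called and open points were not, and dotted lines mark 1 log2 unit. LCR69, LCR72 and LCR66 are filled in both flower contrasts, and LCR69 alone is filled in stem versus leaf, at -1.47.

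In all, 3 of the 4 genes were called higher in flower than leaf and 0 lower, where 9.17% and 9.28% of the tested probe sets were (18.5% either way). The same 3 were called higher in flower than stem and 0 lower, where 9.85% and 8.1% were (18% either way). The share called higher in flower than in both other tissues was 4.72% of all tested probe sets. In stem versus leaf 0 of the 4 were called higher and 1 lower, against 9.33% and 9.35% of all (18.7% either way). A call of lower in stem than leaf together with both flower calls, as in LCR69, was found in 58 probe sets, 0.331% of those tested. Groups did not overlap for 4 of 4 genes in flower versus leaf and in flower versus stem, against 41.9% and 33.1% of all tested probe sets, and for 1 of 4, LCR69, in stem versus leaf, against 39.3%. These counts describe the 4 genes and support nothing: LCR66 and LCR72 reached the signal minimum on at least 3 arrays only with their flower arrays, so a high flower signal was part of how they were chosen. The 3 contrasts share arrays, so their counts are not independent. The median log2 difference of all tested probe sets was -0.02 in flower versus leaf, -0.04 in stem versus leaf and -0.03 in flower versus stem.

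The growth site was compared with tissue as a term, over 5 greenhouse and 5 growth chamber arrays. None of the 4 genes was called, and 0% of all tested probe sets were (0 of 17526 by limma, with 1945, or 11.1%, at an unadjusted p under 0.05). LCR72 came nearest, with a log2 difference of -0.83 ± 0.21 (SE, unadjusted p = 0.0020, adjusted p = 0.26), and was lower on every greenhouse array than on every growth chamber array of the same tissue. Its mean signal was 891 in greenhouse flowers against 1369 in growth chamber flowers, 73.4 against 131 in stems and 17.5 against 98.4 in leaves. A pattern of this kind was found in 3.3% of all tested probe sets, and the opposite one, with the greenhouse higher throughout, in 3.61%. The site difference was -0.42 for LCR66, 0.04 for LCR68 and 0.10 for LCR69, with 95% intervals of -1.25 to 0.40, -0.35 to 0.43 and -0.56 to 0.77.

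For LCR69 that small average hid opposite differences in the tissues. Its mean signal was 12929 in greenhouse flowers against 14746 in growth chamber flowers, a log2 difference of -0.17. In stems it was 2893 on the 1 greenhouse array against 979 on the growth chamber arrays, a difference of 1.53. In leaves it was 3695 on the greenhouse arrays against 6952 on the 1 growth chamber array, a difference of -0.91. The site effect of LCR69 differed between tissues (moderated F test in limma, adjusted p = 0.014), as it did for 0.736% of tested probe sets. The same test gave an adjusted p of 0.71 for LCR66, 0.235 for LCR68 and 0.546 for LCR72. Without stem replicate 3, the greenhouse stem array and the one with the highest 3'/5' ratios, the adjusted p for LCR69 was 0.406; no greenhouse stem is then left, so that value compares the site effect in flower and leaf only. The part of RNA quality in the result was not tested. It was 0.26 with stem replicate 4 counted as growth chamber and 0.038 with it counted as greenhouse, 0.070 and 0.078 without leaf replicates 2 and 3, and 0.0642 and 0.0545 without stem replicates 1 and 2.

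**Figure D3:**
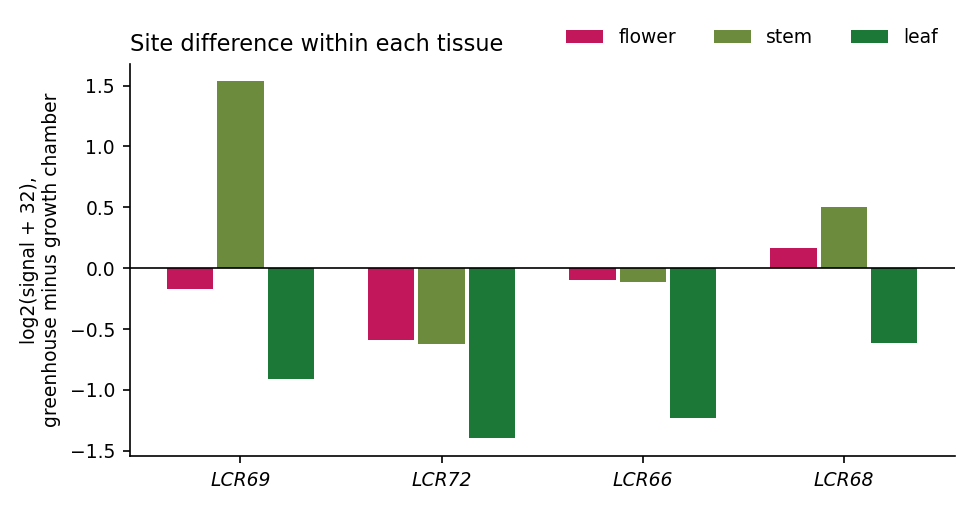
Difference of mean log2(signal + 32), greenhouse minus growth chamber (y axis), for each LCR gene in flower (2 arrays against 2), stem (1 against 2) and leaf (2 against 1). LCR72 is below 0 in all 3 tissues, while LCR69 is at 1.53 in stem and -0.91 in leaf.

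The 4 LCR probe sets outside the rule stayed under a deposited signal of 100 on every array. The highest deposited value of any was 92.5, for LCR24, followed by 54.3 for LCR80, 48.5 for LCR59 and 24.7 for LCR67, also known as PDF1.1. The member nearest the minimum, LCR66, reached it on 4 arrays, with deposited values of 296 to 1119 in flower. An LCR number is the symbol or older name of 85 genes in the gene table, and 12 of these have a probe set of their own, 4 of them under a PDF symbol: PDF1.2, PDF1.4, PDF2.1 and PDF2.5.

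Of the 6 class 2 defensins on the array, the other two, PDF2.1 and PDF2.5, did not reach the minimum and were not tested. PDF2.1, which lies beside LCR68, read 3.75 to 40.1 in flowers, 13.6 to 75.0 in stems and 45.0 to 66.6 in leaves, so its flower arrays all lay below its leaf arrays. PDF2.5 read 20.4 to 149.9 in flowers, 67.7 to 131 in stems and at most 21.6 in leaves. Of the 4 genes of this stretch of chromosome 2 with a probe set of their own, LCR69, LCR68 and LCR72 had flower arrays above all others and PDF2.1 was under 100 on every array. LCR71, LCR73 and AT2G02103 were not analysed here.

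Of 5 plant defensins with a probe set under other symbols, 2 were tested. Both were called lower in flower than leaf and in stem than leaf, against 9.28% and 9.35% of all tested probe sets. In flower versus stem 0 of 2 were called, against 18% of all either way. The median log2 difference of the 2 genes was -4.80, -4.29 and -0.51 in these contrasts. These sizes depend on the pseudocount, as flower and stem signals were low. PDF1.2, a defensin of jasmonate and ethylene responses, averaged 18.7 in flower, 47.7 in stem and 1416 in leaf. PDF1.2b, whose _x_at probe set may also bind transcripts of related genes, averaged 60.4 in flower, 91.6 in stem and 2431 in leaf. PDF1.2 and PDF1.2b are class 1 defensins, and the 4 LCR genes are class 2. PDF1.4, also class 1, read 58.6 to 119 in leaves, 30.5 to 69.7 in flowers and 12.1 to 82.4 in stems. PDF1.1 (LCR67) stayed under 100 on every array. Neither PDF1.4 nor PDF1.1 was tested, so no difference between the classes is read from these genes.

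Among thionins, another group of small cysteine-rich defence proteins, 3 genes were measured and tested. THI2.1 averaged 13323 in flower, 149 in stem and 154 in leaf, and was called higher in flower than leaf (log2 6.17, adjusted p = 3.9e-10) and stem (6.27, adjusted p = 1.3e-10). THI2.2 and AT1G66100 were called lower in flower than leaf, at -4.26 and -5.87, and in stem than leaf, at -4.46 and -5.64. THI2.2 averaged 29.3 in flower, 21.1 in stem and 1130 in leaf, and AT1G66100 44.1, 56.7 and 4479. The sizes of these differences depend on the pseudocount, as flower and stem means were low. Both genes reached the signal minimum on leaf arrays alone, so a high leaf signal was part of how they came to be tested. Over all tested probe sets, 9.28% and 9.35% were called lower in flower versus leaf and in stem versus leaf. Calls of higher in flower than leaf and than stem were made for 9.17% and 9.85%. Of 11 RALF peptide genes, 8 were tested; 4 were called higher in flower than leaf and 3 higher in stem than leaf, against 9.17% and 9.33% of all tested probe sets. RALFL25 averaged 1418 in flower and 52.2 in leaf, and RALFL26 995 in flower and 58.8 in leaf. Both reached the signal minimum on at least 3 arrays only with their flower arrays, so a high flower signal was part of being tested. RALFL22 was 7.84-fold and RALFL32 3.95-fold higher in stem than leaf. In flower versus stem RALFL26, at a log2 difference of 4.43, and RALFL25, at 3.92, were called higher and RALFL22, at -1.82, lower, against 9.85% and 8.1% of all tested probe sets; stem means were 63.1 for RALFL25 and 14.5 for RALFL26, so these sizes also depend on the pseudocount. No probe set was paired by symbol with the SCR-like, GASA, lipid transfer protein or epidermal patterning factor lists.

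**Figure D4:**
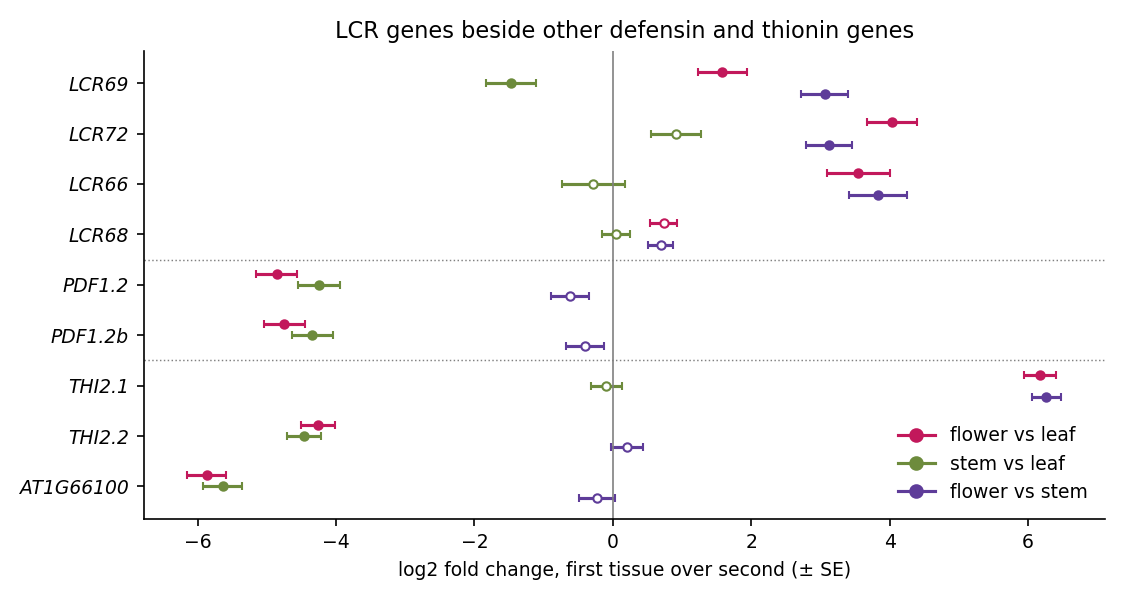
log2 fold change (x axis, first tissue over second, ± SE) of the 4 LCR genes, the 2 other plant defensins tested and the 3 thionins tested, in 3 contrasts; filled points were called. LCR69, LCR72, LCR66 and THI2.1 lie to the right in the flower contrasts, and PDF1.2, PDF1.2b, THI2.2 and AT1G66100 lie below -4 in flower versus leaf and stem versus leaf.

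Genes with the most similar patterns were taken from 1330 other tested probe sets with a gene symbol, by Pearson's r of log2 signal over the 11 arrays. The r values describe arrays that fall into 3 tissues and share their normalisation, so a gene with the same tissue difference scores high. LCR72 was closest to AT59, a pectate lyase gene of pollen (r = 0.974), then to RALFL25, a secreted peptide gene (0.964), and SWEET3, a sugar transporter gene (0.961). AT59 averaged 498 in flower, 37.0 in stem and 13.5 in leaf, and SWEET3 713, 226 and 134. LCR66 was closest to scpl41, a serine carboxypeptidase-like gene (0.973), GPDHC1, a glycerol-3-phosphate dehydrogenase gene (0.964), and SWEET8, a sugar transporter gene of pollen wall formation (0.958). SWEET8 averaged 702 in flower, 99.4 in stem and 129 in leaf, GPDHC1 1953, 450 and 431, and scpl41 230, 15.1 and 20.0. LCR69 was closest to DAYSLEEPER, a gene derived from a transposase (0.969), HTB2, a histone H2B gene (0.954), and SBT1.3, a subtilase gene (0.948). SBT1.3 averaged 5482 in flower, 531 in stem and 1896 in leaf, HTB2 2135, 371 and 610, and DAYSLEEPER 632, 348 and 450. Each had the same order of tissues as LCR69.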

How the data were processed

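RNA was hybridised to Affymetrix ATH1 GeneChips, 1 array per sample. The deposited values are signal intensities that, per the labels, came from Microarray Suite 5.0 with scaling to 500 and a further factor bringing GapC to 8500. Each deposited column had a 2% trimmed mean of about 500, so that second step was not in the values. Here the arrays were scaled to that mean, quantile normalised and transformed as log2(signal + 32). Control probe sets (64 of 22810) were left out, and 17526 with a normalised signal of at least 100 on at least 3 arrays were tested.

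The 3 tissues were contrasted in a single model of all 11 arrays with limma 3.58.1 in R 4.3.3 (lmFit, eBayes with trend), two-sided. Site was tested with tissue as a term, and for its interaction with tissue, in the 10 arrays with a single stated site; cells with 1 array were assumed to vary like the others. The pipeline was tested on simulated data. Detection calls were not used, and the number of arrays limits precision. Genes were named through GEO's platform annotation and a TAIR10.1 gene table, which matched all 8 LCR probe sets; no coordinates are given because the array files name no genome build. No sequences are shown.

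The members and gene lists were chosen with earlier results of these data known, and lists are described by counts only. The text names every LCR probe set, the called list members with the largest folds (up to 2 per direction and contrast), the tissue markers, and the 3 genes of most similar pattern for each called member; PDF2.1 and PDF2.5 were added after their values were seen. Alternatives were other scalings, pseudocounts and signal minimums, no trend, no minimum fold, a replicate block, site as a covariate, 2 tissues only, either site for stem replicate 4, and leaving out each array. Those for the interaction were chosen after seeing the data.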

Additional observations from a re-analysis of the deposited data

Results flagged for a closer look

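LCR69 had a site effect that differed between flower, stem and leaf (adjusted p = 0.0140 by limma, over 2, 1 and 2 greenhouse arrays against 2, 2 and 1 growth chamber arrays). LCR66 in stem replicate 4, at 31.4, lay apart from the other 3 stems, though all 4 stems were under the signal minimum of 100. LCR69 in flower replicate 2, at 16862, lay apart from the other 3 flowers, though it was only 1.34 times the lowest of them. Stem replicate 3 lay far above the other stems in its actin 3'/5' ratio of 12.2 and its GAPDH 3'/5' ratio of 13.0. Of 14 groups of 4 arrays examined with Dixon's gap test, 4 held such an extreme array. The test's chance rate of about 1 in 20 assumes normally distributed values and separate groups. Signals and ratios were used untransformed, and the actin and GAPDH ratios point at the same array. The count therefore cannot be set against that rate.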

How the results depend on the processing

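LCR66 and LCR72 were called higher in flower than leaf and than stem under all 23 alternatives run, as was LCR69 in flower versus stem. For LCR66 and LCR72 a high flower signal was part of how they were chosen, so their unchanged calls are no added support. LCR69 in flower versus leaf was lost only with median centring (0.94). The number of members called was 2 to 4 in flower versus leaf and 3 to 4 in flower versus stem. All 4 were called in flower versus leaf only with GapC scaling or no minimum fold. These settings called 5642 and 5613 of the 17526 tested probe sets, against 3234. In flower versus stem all 4 were called only with no minimum fold, which called 6221 of all, against 3146. In stem versus leaf the count of called members was 1, and 2 with a pseudocount of 1 or a replicate block. It was 1 to 2 when each array was left out, and 1 with GapC scaling, but LCR72 in place of LCR69. Over all tested probe sets 3274 were called in stem versus leaf, 3514 with a pseudocount of 1 and 3275 with a replicate block. Same-numbered arrays correlated in their deviations from the tissue mean at 0.089 to 0.15 between flower and stem, which is above 0.1 in 3 of 4 pairs, and at -0.16 to 0.024 in pairs with leaf. The numbers were not taken to pair the arrays, and the replicate block changed no other call. Signs that turned were all of differences not called: LCR66 in stem versus leaf (0.13 without leaf replicate 1, with a range of -0.51 to 0.13 over arrays left out), LCR68 in stem versus leaf (-0.064 to 0.25), and in greenhouse versus growth chamber LCR68 (-0.15 to 0.30) and LCR69 (-0.47 to 0.51). For the site effect that differs between tissues the count was 1, 0 with stem replicate 4 as growth chamber, and 0 to 1 when each array was left out. The causes were not tested.

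Over all probe sets, GapC scaling raised the calls in flower versus leaf to 5642, of which 89.1% were higher, against 3234 of which 1608 were; it shifted the median difference by 0.70 there, 0.50 in stem versus leaf (85.3% of calls higher) and 0.20 in flower versus stem (65.7%). Trimmed mean scaling shifted it by 0.16 and 0.17 in the flower contrasts (58.7% and 64.0% of calls higher), and median centring by -0.12 and -0.13 (39.2% and 39.6%). With no minimum fold 5613, 6039 and 6221 probe sets were called in flower versus leaf, stem versus leaf and flower versus stem. The site contrast called 0 to 14, most without leaf replicate 1, and the interaction 10 (stem replicate 4 as greenhouse) to 237 (GapC scaling) against 129.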
